A study of Mus musculus with 32 samples.

Results

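The enzymes that activate, build, desaturate, burn and esterify fatty acids were followed in mouse synovium and cartilage, together with a few of their regulators. The genes were taken by symbol alone, as families: the acyl-CoA synthetases (Acsl, Acsm, Acss), the carboxylases, dehydrogenases and thiolases whose symbols open with Aca, and further families such as Acot, Acly, Fasn, Elovl, Fads, Scd, Cpt, Crat, Hadh, Ech and Eci. The rule further took Agpat, Gpam, Gpd1, Dgat, Mogat, Lpin, Mgll, Me1, Pcx, Mlxipl, Srebf and Insig, and it used no measured value. Of the 2544 genes listed in either table, 43 were members: 42 of the 1178 genes of the synovium table and 9 of the 1606 genes of the cartilage table, with 8 in both. GENCODE vM21 holds 101 protein-coding mouse genes under the same symbols, and 58 of them were in neither table. Those 58, among them all 13 Acot thioesterases, both Srebf genes, Acly, Acadvl, Hadha and the Cpt1 genes, were not analysed here, and their absence from tables of selected genes says nothing about their level.

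RNA sequencing measured gene expression in tissue taken from C57BL/6 mice, in control animals and in animals of a model called MMS. Synovium had 3 samples in each of 6 groups, which were Control, the model groups MMS D3, MMS D7 and MMS D14, and the groups R1 and R2, and cartilage had 2 samples in each of the same groups and of MMS D28, 7 in all. The labels leave MMS, R1 and R2 unexplained, give no unit for the number after D, and state no age, sex or surgery, so the group names stand as given. They do not say that the samples of a group came from separate animals, so every p-value measures the spread between these samples, which may be technical. Synovium levels are FPKM, fragment counts scaled to transcript length and library size, and cartilage levels are a normalised signal of unstated unit. A change is a difference of log2(value + 1), called where the limma p-value, adjusted over every gene of that tissue's table after Benjamini and Hochberg, was under 0.05.

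A fatty acid is first joined to coenzyme A by a synthetase, and from there it is either stored or burned. Cells build new fatty acids in the cytosol from acetyl-CoA, through malonyl-CoA and fatty acid synthase, with NADPH as reductant, and then elongate and desaturate them. Triglyceride is assembled on a glycerol 3-phosphate backbone by successive acyltransferases, ending with the diacylglycerol acyltransferases, while mitochondria and peroxisomes shorten acyl chains by repeated dehydrogenation, hydration, oxidation and thiolysis. Joint tissue carries these programmes most densely in the fat cells of the infrapatellar pad that adjoins the synovium.

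Several features of the tables bear on the members. Both tables hold selected genes by an unstated rule: 98.0% of the synovium genes differed at least 1.5-fold between the means of MMS D14 and Control, and 99.0% of the cartilage genes between MMS D28 and Control. Being listed therefore goes with a difference in those comparisons, and counts of members or of other lists called against Control are to be read beside the share of all listed genes called the same way. Sequencing depth is unknown, as no read counts were used, and the lowest values were 0.55 FPKM in synovium and 0.5 in cartilage. In synovium, 4 of 7 lining fibroblast markers were listed, led by Htra4, and Prg4 was not in that table. In cartilage 11 of 14 chondrocyte markers were listed, led by Chad, Comp and Col2a1. The cartilage table also listed 10 of 10 neutrophil and 7 of 7 B cell markers. In 5 synovium libraries, the third replicates of MMS D3, MMS D7, MMS D14, R2 and Control, the predicted genes Gm2023 and Gm6958 stood apart, at 1.71 to 3.36 and 1.17 to 2.30 FPKM against 12.6 to 56.2 and 5.12 to 20.5 FPKM in the other 13 libraries. Counts that rest on these libraries are given with and without them.

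Nearly all of the 42 members listed in synovium fell. Their summed level was lowest in MMS D14, while the MMS D3 and MMS D7 sums overlapped. Summed over the 42 members, the level was 7416 to 8977 FPKM in the Control libraries, 3616 to 6858 in those of MMS D3, 3693 to 4498 in those of MMS D7 and 1504 to 3239 in those of MMS D14, and it was 4590.0 to 5186 in R1 and 4548 to 4945 in R2. The highest sum of any MMS, R1 or R2 library was thus below the lowest Control sum. In MMS D3, 30 of the 42 members were called lower than Control and 0 higher, where 39.6% of all listed genes were called lower. In MMS D7, 40 were called lower and 1 higher, beside 61.6% and 24.1% of all genes. In MMS D14, 41 were called lower and 1 higher, beside 69.3% and 27.7%. The median log2 change of the members was -0.61 at MMS D3, -0.998 at MMS D7 and -1.74 at MMS D14, where all listed genes had medians of -0.34, -0.65 and -1.08.

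R1 and R2 stood between MMS D14 and Control. In R1, 35 members were called lower than Control and 1 higher, beside 45.2% and 15.9% of all genes, and in R2 the counts were again 35 and 1, beside 45.1% and 15.7%. Their median log2 changes were -0.79 in R1 and -0.85 in R2, against a median of -0.38 over all genes in each. Set against MMS D14, R1 had 39 members higher and 1, Agpat4, lower (63.2% and 25.8% of all genes), the Agpat4 call being lost without any of 5 of the 6 libraries (adjusted p 0.0528 to 0.127), and R2 had 40 higher (63% of all genes) and 0 lower. These comparisons share the Control or the MMS D14 samples and are not independent. Between R2 and R1 limma called 0 of 42 members and 0% of all genes, with 1 member and 52 of 1178 genes at an unadjusted p under 0.05. The member differences between R2 and R1 ran from -0.52 to 0.75 on the log2 scale, and a p that misses the threshold does not show equal levels.

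**Figure D1:**
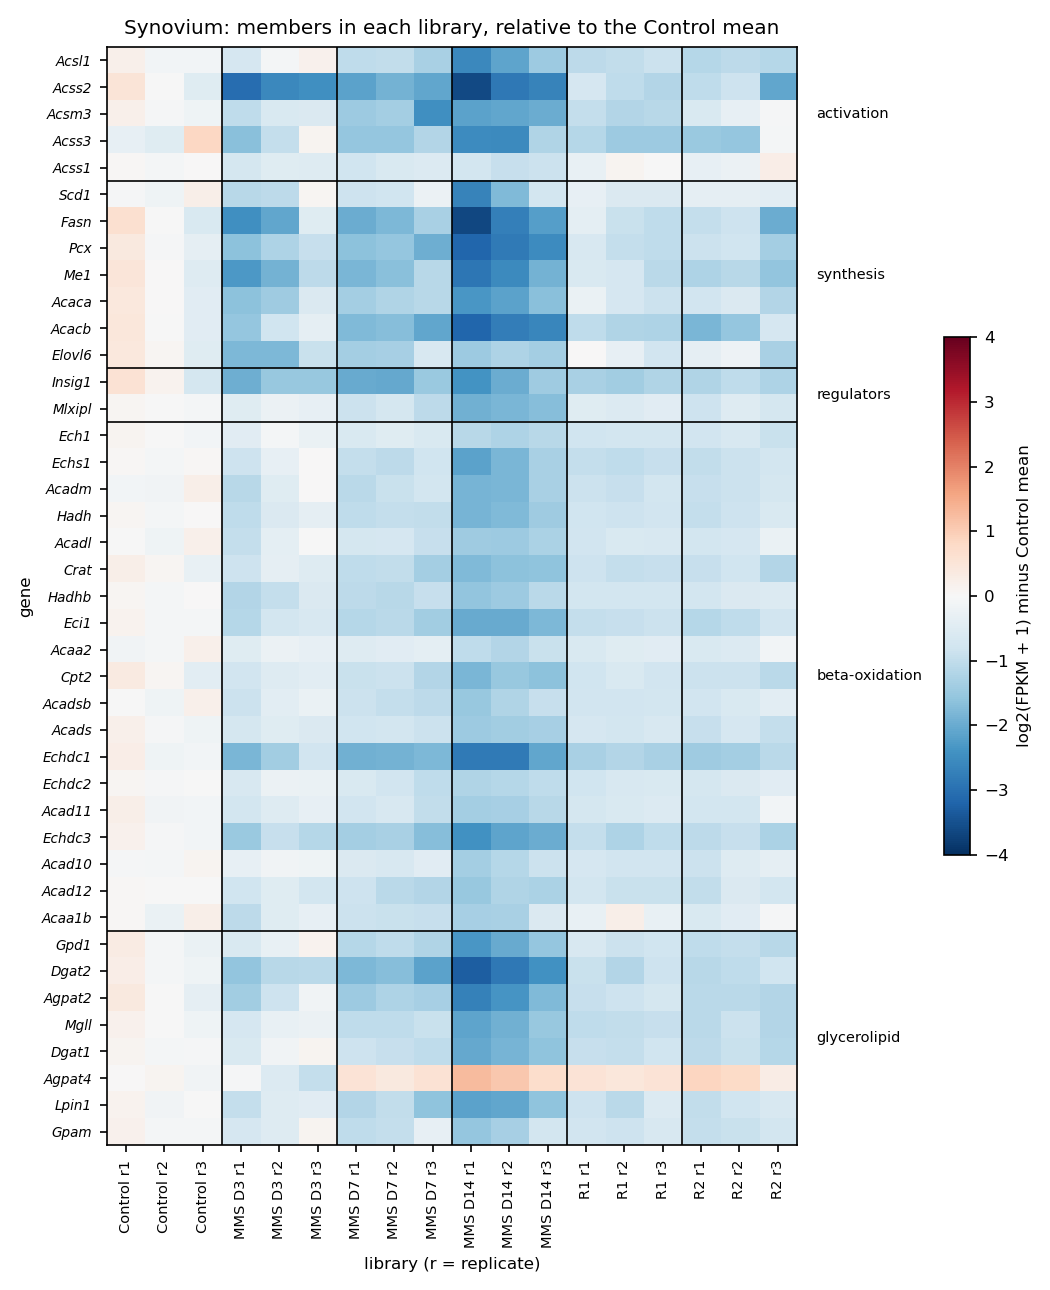
Each row is 1 of 41 of the 42 synovium members, grouped by role, and each column is 1 library (r = replicate). Colour gives log2(FPKM + 1) minus the mean of the 3 Control libraries, blue for lower and red for higher. The MMS D14 columns are the darkest blue, with a median change of -1.74 over the 42 members, and the Agpat4 row is red in every library from MMS D7 on.

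Among the synovium comparisons with Control, leaving out single libraries moved the MMS D3 count most. It was 17 without Control replicate 1 and 17 without MMS D3 replicate 1, while 16 of the 30 calls held whichever library was left out. The corresponding shares were 38 of 41 calls for MMS D7, 42 of 42 for MMS D14, 30 of 36 for R1 and 30 of 36 for R2. Without the 5 libraries that stand apart, 37 members were called at MMS D3, 42 at MMS D7, 42 at MMS D14, 39 at R1 and 38 at R2. With each sample centred on its own median, which moved the member changes by 0.52 in MMS D14 and by 0.12 to 0.28 in the other 4 comparisons with Control, 40 members were called lower and 1 higher in MMS D14. Shares of all listed genes were not counted for the fits of this paragraph, so these counts concern the members alone.

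Fat cell content is one quantity that moved with these results. All 16 fat cell markers were listed in synovium, and their summed level was 35358 to 43531 FPKM in the Control libraries, 18407 to 30537 in those of MMS D3, 15979 to 18085 in those of MMS D7, 6563 to 10201 in those of MMS D14, 17880.3 to 19777 in those of R1 and 17157 to 19454 in those of R2. Of the 16, 7 were called lower than Control at MMS D3, 14 at MMS D7, 16 at MMS D14, 16 at R1 and 15 at R2, and 0 were called higher, beside 39.6%, 61.6%, 69.3%, 45.2% and 45.1% of all genes called lower. The MMS D3 share of the markers thus lay near that of all genes. Many members are themselves abundant in fat cells, and in bulk tissue fewer fat cells and less RNA per fat cell cannot be told apart. The part of fat cell content in the falls was not tested as a cause, and the values relative to these markers are given after the role groups. Neutrophil, macrophage and B cell markers were not in the synovium table. The muscle list had 2 of 20 markers there, with a summed level of 36.8 to 191 FPKM in MMS D14 and 38.2 to 137 FPKM in Control, and the erythroid list had 5 of 9, at 962 to 2608 and 3497 to 4831 FPKM.

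Markers of further cells of the joint moved as well. The bone cell list had 6 of 10 genes in the synovium table, led by Col1a1, which fibroblasts make too. They summed to 881 to 1125 FPKM in the Control libraries, 1065 to 1813 in those of MMS D3, 2626 to 3131 in those of MMS D7, 3386 to 4993 in those of MMS D14, 1512 to 1730.0 in R1 and 1135 to 1983 in R2. In MMS D14, 2 of the 6 were called higher, Col1a1 (log2 change 2.83) and Ibsp (3.77), and 3 lower, beside 27.7% and 69.3% of all genes. The median log2 change of the 6 was -0.43 in MMS D3, -0.37 in MMS D7 and -0.75 in MMS D14. In R1 it was 1.03 and in R2 0.70. The higher sums of the MMS groups thus do not stand for the list as a whole. The 2 of 14 chondrocyte markers listed, Comp and Sox9, summed to 159 to 178 FPKM in Control, 190.1 to 383 in MMS D3, 366 to 490.0 in MMS D7, 499 to 573 in MMS D14, 234 to 323 in R1 and 222 to 269 in R2. Both were called higher in MMS D7 and MMS D14, as was Agpat4, beside 24.1% and 27.7% of all genes. The 2 of 6 brown fat cell markers listed, Cidea and Cox8b, fell with the members, at 182 to 303 FPKM in Control, 51.6 to 103 in MMS D3, 46.1 to 106 in MMS D7, 18.5 to 32.6 in MMS D14, 175 to 198 in R1 and 99.85 to 169 in R2. The 4 lining fibroblast markers summed to 599.6 to 769 FPKM in Control, 368 to 564 in MMS D3, 461 to 576 in MMS D7, 327 to 419 in MMS D14, 1097 to 1391 in R1 and 909 to 1870.2 in R2. Of these, 3 were called lower in each MMS group, beside 39.6%, 61.6% and 69.3% of all genes. In R1 and in R2, 2 were called higher, beside 15.9% and 15.7%. The part of these cells in the member changes was not tested.

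Of the 5 activating enzymes, 3 were called lower at MMS D3, 5 at MMS D7 and 5 at MMS D14, beside 39.6%, 61.6% and 69.3% of all genes. Acss2, the cytosolic and nuclear enzyme that makes acetyl-CoA from acetate, was at 115, 79.7 and 56.7 FPKM in the Control libraries, 8.79, 12.6 and 13.8 in those of MMS D3, 17.6, 20.9 and 18.4 in those of MMS D7, and 5.69, 10.3 and 11.6 in those of MMS D14. All 9 MMS libraries lay below the lowest Control library. The change from Control was -2.70 at MMS D3, -2.03 at MMS D7 and -3.05 at MMS D14 on the log2 scale (SE 0.32, limma adjusted p = 8.12e-06, 3.30e-05 and 1.62e-07). Its level was 50.2, 39.6 and 35.1 FPKM in R1 and 39.6, 44.4 and 18.4 in R2, so that every R1 and R2 library was below Control and above MMS D14. The R1 call for Acss2 (adjusted p = 0.0165) ended without Control replicate 1 (0.0904) or R1 replicate 3 (0.0590). The exons of Acss2 overlap those of 3 genes on the other strand, Acss2os, Ggt7 and Gss. Strand use in counting is not stated, so its reads could include those transcripts. The same limit is wider, as 18 members have exons that overlap another gene.

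Acsl1, the main long-chain acyl-CoA synthetase of fat tissue, stayed near Control for longer. It measured 416, 339.7 and 339 FPKM in the Control libraries, 227, 344 and 411 in those of MMS D3, 178, 185 and 146 in those of MMS D7, and 60.5, 83.8 and 132 in those of MMS D14. The MMS D3 libraries overlapped Control and the difference was not called (log2 change -0.19 ± 0.24 (SE), limma adjusted p = 0.504). From MMS D7 on all libraries were lower than Control, both in MMS D7 (log2 change -1.10 ± 0.24 (SE), limma adjusted p = 0.000508) and in MMS D14 (log2 change -2.04 ± 0.24 (SE), limma adjusted p = 5.05e-07). Acsl1 was at 176, 182 and 199 FPKM in R1 and 166, 177 and 163 in R2, below every Control library and above every MMS D14 library. Acsm3, a medium-chain acyl-CoA synthetase, was at 14.8, 12.3 and 11.3 FPKM in the Control libraries, 5.72, 7.97 and 8.29 in those of MMS D3, 3.98, 4.39 and 1.5 in those of MMS D7, and 2.11, 2.28 and 2.45 in those of MMS D14. All 9 MMS libraries were below Control (log2 change -2.07 ± 0.24 (SE), limma adjusted p = 4.49e-07 in MMS D14). It was at 6.07, 5.14 and 5.42 FPKM in R1 and 7.97, 10.01 and 12.3 in R2. R1 lay below Control, and R2 overlapped it and was not called (log2 change -0.32, adjusted p = 0.25). Acss3, a mitochondrial short-chain synthetase, was at 9.95, 8.96 and 23.5 FPKM in the Control libraries, 3.39, 6.10 and 13.99 in those of MMS D3, 3.79, 3.75 and 5.17 in those of MMS D7, and 1.45, 1.39 and 5.08 in those of MMS D14. It was 5.25, 4.10 and 4.02 FPKM in R1 and 3.91, 3.72 and 12.3 in R2. The third replicate was the highest of MMS D3, MMS D7, MMS D14, R2 and Control, and these are the 5 libraries of the set that stands apart. The Acss3 call in MMS D7 (adjusted p = 0.0111) was lost without Control replicate 3 (0.0719). Acss1, the mitochondrial acetate enzyme, fell in MMS D14 (log2 change -0.84 ± 0.16 (SE), limma adjusted p = 7.55e-05), a call lost when samples were centred on their medians (adjusted p = 0.0676), and its R1 and R2 levels overlapped Control (log2 changes -0.06 and -0.10).

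The synthesis genes had the lowest median of the role groups in MMS D3. Of the 7 genes for synthesis, elongation and desaturation, 6 were called lower in MMS D3, beside 39.6% of all genes, with a median log2 change of -1.26, where the 20 oxidation genes had a median of -0.55 and the 8 glycerolipid genes one of -0.46. The difference between these medians was not tested. Fasn, fatty acid synthase, measured 944, 606 and 399.96 FPKM in the Control libraries, 112, 145 and 433 in those of MMS D3, 153, 176 and 249.7 in those of MMS D7, and 48.6, 90.3 and 132 in those of MMS D14. Replicate 3 of MMS D3, a library of the set that stands apart, reached into the Control range, and the other MMS libraries were all below it. The change was called in MMS D3 (log2 change -1.67 ± 0.47 (SE), limma adjusted p = 0.00719), in MMS D7 (log2 change -1.69 ± 0.47 (SE), limma adjusted p = 0.00332) and in MMS D14 (log2 change -2.86 ± 0.47 (SE), limma adjusted p = 1.97e-05). Fasn was at 465, 331 and 303 FPKM in R1 and 319, 344 and 153 in R2. The R1 libraries overlapped Control and were not called (log2 change -0.76, limma adjusted p = 0.165, and -1.07 with adjusted p = 0.00399 without the 5 libraries). The R2 call (adjusted p = 0.0288) ended without Control replicate 1 (0.125), Control replicate 2 (0.0589) or R2 replicate 3 (0.127).

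Pcx, pyruvate carboxylase, which supplies oxaloacetate for citrate, was at 322, 236 and 191 FPKM in the Control libraries, 77.7, 104 and 129 in those of MMS D3, 76.8, 83.4 and 62.1 in those of MMS D7, and 25.96, 33.4 and 42.03 in those of MMS D14. Its MMS libraries were all below Control in every group, with log2 change -2.84 ± 0.24 (SE), limma adjusted p = 1.87e-08 in MMS D14. Pcx was at 155, 126 and 121 FPKM in R1 and 135, 141 and 93.7 in R2, between the MMS D7 and the Control libraries with no overlap. Me1, the cytosolic malic enzyme that supplies NADPH, was at 252, 179 and 126 FPKM in the Control libraries, 35.6, 47.1 and 86.5 in those of MMS D3, 50.1, 55.9 and 81.9 in those of MMS D7, and 23.1, 29.6 and 47.9 in those of MMS D14. Every MMS library was below every Control library, and Me1 was already called in MMS D3 (log2 change -1.74 ± 0.33 (SE), limma adjusted p = 0.000496). Me1 was at 118, 113 and 83.5 FPKM in R1 and 75.98, 83.02 and 59.01 in R2, all below Control and above MMS D14. Its R1 call (adjusted p = 0.0468) ended without Control replicate 1 (0.206), Control replicate 2 (0.0887) or any single R1 library (0.0591, 0.0680 and 0.150). The carboxylases that make malonyl-CoA both fell in MMS D14: Acaca averaged 16.3 ± 4.32 FPKM in MMS D14 and 71.5 ± 21.9 in Control, and Acacb 3.21 ± 0.81 and 29.8 ± 9.74 (SD, n = 3 each). Elovl6, which lengthens the product of Fasn, was already low in MMS D3, at 3.76 ± 1.88 FPKM against 12.2 ± 3.89 in Control (log2 change -1.495 ± 0.32 (SE), limma adjusted p = 0.00138), and was not called in R1 or R2 (log2 changes -0.36 and -0.62).

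Scd1, the desaturase that makes monounsaturated fatty acids, was by FPKM the most abundant member. It measured 2537, 2326 and 3089.9 FPKM in the Control libraries, 1213, 1267 and 2754 in those of MMS D3, 1496, 1531 and 2250.2 in those of MMS D7, and 410.3, 774 and 1573 in those of MMS D14. In each of these 4 groups the third replicate, again of the set that stands apart, was the highest. Scd1 was not called in MMS D3 (log2 change -0.70 ± 0.37 (SE), limma adjusted p = 0.119) or MMS D7 (log2 change -0.61 ± 0.37 (SE), limma adjusted p = 0.138), although all MMS D7 libraries were below Control, and it was called in MMS D14 (log2 change -1.73 ± 0.37 (SE), limma adjusted p = 0.000311). Without the 5 libraries the MMS D3 change was -0.97 with an adjusted p of 0.00359. It was at 2094, 1769 and 1748 FPKM in R1 and 2035, 2072 and 1978 in R2, all below Control and not called (adjusted p = 0.254 and 0.395).

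Both regulators fell. Insig1, an endoplasmic reticulum protein that holds back activation of the SREBP factors and is itself one of their targets, was at 204, 151 and 83.6 FPKM in the Control libraries, 34.5, 47.4 and 47.6 in those of MMS D3, 33.4, 32.3 and 48.2 in those of MMS D7, and 25.5, 34.03 and 50.9 in those of MMS D14. All 9 MMS libraries were below Control, and the 3 MMS groups overlapped each other, with log2 change -1.66 ± 0.28 (SE), limma adjusted p = 0.000217 in MMS D3 and log2 change -1.92 ± 0.28 (SE), limma adjusted p = 5.22e-06 in MMS D14. Insig1 was at 55.7, 51.1 and 59.3 FPKM in R1 and 58.6, 66.6 and 57.95 in R2, also below every Control library (log2 change -1.30 ± 0.28 (SE), limma adjusted p = 0.00115 in R1). Mlxipl, which encodes the carbohydrate-responsive factor ChREBP, followed a slower course, at 39.6, 37.5 and 35.7 FPKM in the Control libraries, 26.5, 31.9 and 29.8 in those of MMS D3, 20.1, 22.5 and 17.6 in those of MMS D7, and 9.13, 9.95 and 10.97 in those of MMS D14. Its groups were below Control throughout and well apart in MMS D14 (log2 change -1.81 ± 0.14 (SE), limma adjusted p = 7.50e-09). Mlxipl was at 26.9, 25.5 and 26.9 FPKM in R1 and 20.8, 25.9 and 22.8 in R2, below every Control library and above every MMS D14 library. The MMS D3 call for Mlxipl (adjusted p = 0.0387) ended without any one of Control replicate 1 (0.111), 2 (0.0820) or 3 (0.0516), or without MMS D3 replicate 1 (0.131) or 3 (0.0560).

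Promoter windows are shown for 3 genes that were already lower in MMS D3, Acss2, Fasn and Insig1, and for Agpat4, the member that rose, because the first 3 belong to a pathway known for shared control by SREBP factors. Each window is 250 bases before to 50 after the RefSeq start on GRCm38.p6, read 5′ to 3′ on the gene's strand: chr2:155517793-155518092 (plus), chr11:120824498-120824797 (minus), chr5:28071162-28071461 (plus) and chr17:12119034-12119333 (plus). Capitals mark matches on either strand to the sterol element TCACNCCAC, the E-box CACGTG or the box CCAAT, and no match of one motif overlaps a match of another in these windows, while 2 of the CCAAT matches of Fasn overlap each other.
Acss2: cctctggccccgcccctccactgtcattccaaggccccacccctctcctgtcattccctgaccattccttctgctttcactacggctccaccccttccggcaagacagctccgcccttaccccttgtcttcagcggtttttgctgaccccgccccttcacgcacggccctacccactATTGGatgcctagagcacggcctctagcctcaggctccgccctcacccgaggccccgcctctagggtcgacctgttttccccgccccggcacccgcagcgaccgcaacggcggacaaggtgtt
Fasn: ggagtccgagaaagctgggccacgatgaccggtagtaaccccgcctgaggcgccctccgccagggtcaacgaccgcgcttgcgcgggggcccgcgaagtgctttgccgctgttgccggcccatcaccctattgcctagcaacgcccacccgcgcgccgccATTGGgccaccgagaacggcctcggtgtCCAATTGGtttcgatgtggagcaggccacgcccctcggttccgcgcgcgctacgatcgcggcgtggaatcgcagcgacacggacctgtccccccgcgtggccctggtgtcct
Insig1: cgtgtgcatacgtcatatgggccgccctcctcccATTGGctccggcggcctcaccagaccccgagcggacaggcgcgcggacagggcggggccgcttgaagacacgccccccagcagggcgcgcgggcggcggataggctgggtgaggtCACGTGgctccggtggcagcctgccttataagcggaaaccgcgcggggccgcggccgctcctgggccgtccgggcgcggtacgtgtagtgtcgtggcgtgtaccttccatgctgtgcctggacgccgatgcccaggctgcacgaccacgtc
Agpat4: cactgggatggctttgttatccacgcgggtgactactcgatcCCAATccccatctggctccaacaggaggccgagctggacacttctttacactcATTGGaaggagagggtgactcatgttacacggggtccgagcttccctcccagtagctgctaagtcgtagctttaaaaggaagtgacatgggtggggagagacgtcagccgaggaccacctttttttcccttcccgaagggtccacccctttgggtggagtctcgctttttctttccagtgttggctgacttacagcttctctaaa
None of these 4 windows held the sterol element, which says only that these letters are not in these windows. Acss2 had 1 CCAAT box, Fasn 3, Agpat4 2 and Insig1 1 with 1 E-box. Over the 34 synovium members with a promoter in the RefSeq table, 3 held the sterol element, 5 the E-box and 15 the CCAAT box. Over all 32851 windows of the same length 1.24%, 7.15% and 37.4% did. Members were counted as genes with a match in any of their windows, and the percentages count single windows. Some members have more than 1 window, among them the 3 with the sterol element, so the counts and percentages are not on the same footing. A match is a description of letters and not a binding site.

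The genes of beta-oxidation and the carnitine shuttle had a smaller median change than the other role groups in MMS D14, a difference that was not tested. Of 20, 14 were called lower at MMS D3, 20 at MMS D7, 20 at MMS D14, 19 at R1 and 19 at R2, beside 39.6%, 61.6%, 69.3%, 45.2% and 45.1% of all genes. The median log2 change in MMS D14 was -1.38, where that of all genes was -1.08. Acadm, the medium-chain acyl-CoA dehydrogenase, measured 129, 126 and 165 FPKM in the Control libraries, 63.3, 100.03 and 140.04 in those of MMS D3, 65.8, 75.2 and 82.5 in those of MMS D7, and 37.5, 38.2 and 56.4 in those of MMS D14. The MMS D3 libraries overlapped Control (log2 change -0.53 ± 0.23 (SE), limma adjusted p = 0.0572), and without the 5 libraries the change was -0.68 with an adjusted p of 0.00617. The MMS D14 libraries were all lower than those of MMS D7 and Control (log2 change -1.66 ± 0.23 (SE), limma adjusted p = 2.78e-06). Acadm was at 75.8, 73 and 83.1 FPKM in R1 and 72.2, 76.3 and 84.2 in R2, below Control and overlapping MMS D7. Ech1, a dienoyl-CoA isomerase and the most abundant of the group, was at 265, 245 and 228 FPKM in the Control libraries, 179, 234 and 203 in those of MMS D3, 159.6, 174 and 160.2 in those of MMS D7, and 113, 103 and 114 in those of MMS D14. Its MMS D3 libraries overlapped Control and its MMS D14 values were the lowest of all groups, with a smaller change than most (log2 change -1.15 ± 0.13 (SE), limma adjusted p = 3.51e-07). Ech1 was at 142, 148 and 149 FPKM in R1 and 143, 158 and 132 in R2, below every MMS D7 library and above every MMS D14 library.

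Echs1, the short-chain enoyl-CoA hydratase, measured 151, 138 and 152 FPKM in the Control libraries, 82.3, 116 and 148 in those of MMS D3, 74.8, 69.7 and 83.2 in those of MMS D7, and 32.8, 40.9 and 58.9 in those of MMS D14. Hadh, the hydroxyacyl-CoA dehydrogenase, measured 139, 123 and 132 FPKM in the Control libraries, 64.5, 87.1 and 102 in those of MMS D3, 65.2, 67.9 and 66.2 in those of MMS D7, and 35.7, 37.7 and 48.3 in those of MMS D14. MMS D3 overlapped Control for Echs1 and not for Hadh. Both were below Control in MMS D7 and MMS D14. Echs1 was at 74.8, 72.6 and 76.2 FPKM in R1 and 73.7, 81.3 and 87.4 in R2, and Hadh at 75.5, 72.97 and 77.5 FPKM in R1 and 67.2, 73.7 and 85.98 in R2. Both genes were below every Control library and above every MMS D14 library in R1 and R2 (R1 against MMS D14 log2 changes 0.78 and 0.89, limma adjusted p = 0.00215 and 0.00015). Cpt2, which returns acyl groups from carnitine to coenzyme A inside mitochondria, also fell in MMS D14 (log2 change -1.66), as did Crat, the carnitine acetyltransferase (-1.67). Echdc1, an enzyme that removes aberrant malonyl-type CoA products, had the largest change of the group (log2 change -2.57 ± 0.24 (SE), limma adjusted p = 5.27e-08), and Acaa2, the mitochondrial thiolase, the smallest (log2 change -1.02 ± 0.15 (SE), limma adjusted p = 7.06e-06). Acaa1b, a peroxisomal thiolase with a near-identical neighbour that was not in the table, was not called in R1 or R2 (log2 changes -0.12 and -0.37). Reads of such copies, and of the neighbouring pair Acad10 and Acad12, could be split by counting, and their values are uncertain.

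**Figure D2:**
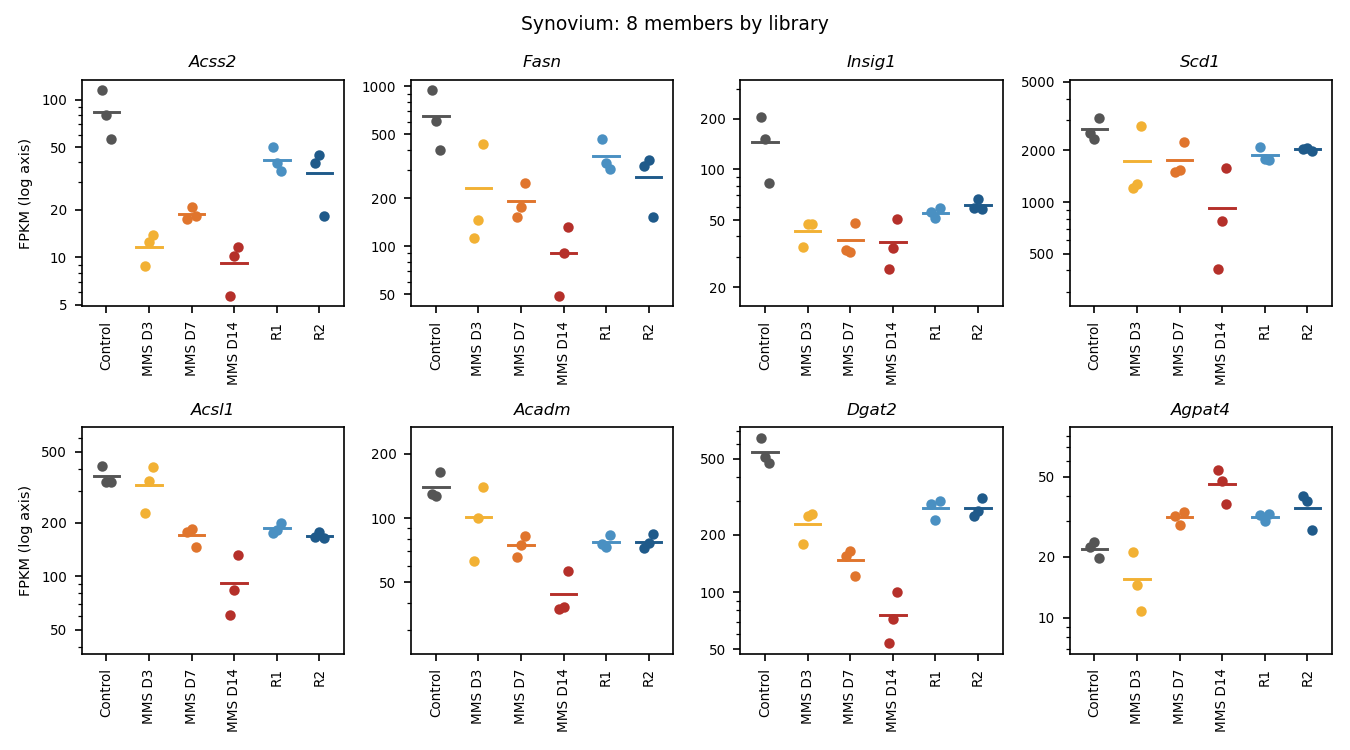
FPKM on a log axis in each library for 8 synovium members, by group, with points for libraries and bars for group means. Acss2 and Insig1 were below Control already in MMS D3, Acsl1 and Acadm overlapped Control there, and Agpat4 was above Control from MMS D7 on.

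Of the 8 glycerolipid and triglyceride genes, 5 were called lower at MMS D3, 7 at MMS D7, 7 at MMS D14, 7 at R1 and 7 at R2, beside the same shares of all genes, and 1 was called higher from MMS D7 on. Gpd1, which makes the glycerol 3-phosphate backbone, measured 603, 454 and 397 FPKM in the Control libraries, 314, 386 and 529 in those of MMS D3, 214, 235 and 205 in those of MMS D7, and 93.3, 118 and 162 in those of MMS D14. MMS D3 overlapped Control (log2 change -0.25 ± 0.21 (SE), limma adjusted p = 0.313), and the MMS D7 and MMS D14 libraries were all below it (log2 change -1.97 ± 0.21 (SE), limma adjusted p = 2.17e-07 in MMS D14). Gpd1 was at 304, 264 and 274 FPKM in R1 and 235, 244 and 221 in R2, below every Control library and above every MMS D14 library. Dgat2, which closes triglyceride synthesis from newly made fatty acids, was at 646, 510.1 and 473 FPKM in the Control libraries, 179, 249.7 and 256 in those of MMS D3, 155, 165 and 121 in those of MMS D7, and 53.8, 72.5 and 99.96 in those of MMS D14. Its fall was already called in MMS D3 (log2 change -1.25 ± 0.21 (SE), limma adjusted p = 0.000259), no library overlapped between successive groups, and it reached -2.86 ± 0.21 (SE) in MMS D14. Dgat2 was at 290.3, 238 and 300.1 FPKM in R1 and 250.2, 268 and 310.4 in R2, below every Control library and above every MMS D14 library (R1 against MMS D14 log2 change 1.90 ± 0.21 (SE), limma adjusted p = 4.27e-06).

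Dgat1, the other acyltransferase of the last step, averaged 132 ± 32.4 FPKM in MMS D3 and 149.8 ± 11.4 in Control and was not called there (log2 change -0.21 ± 0.17 (SE), limma adjusted p = 0.289). In MMS D14 it averaged 41.5 ± 6.71 FPKM (log2 change -1.84 ± 0.17 (SE), limma adjusted p = 4.70e-08). Agpat2, which adds the second acyl chain and whose loss causes lipodystrophy in humans, was at 458, 349.8 and 272 FPKM in the Control libraries, 133.68, 199 and 320.3 in those of MMS D3, 127, 148 and 139 in those of MMS D7, and 52.6, 67.4 and 103 in those of MMS D14. Its MMS D3 call (adjusted p = 0.0234) ended without Control replicate 1 (0.108), Control replicate 2 (0.0510), MMS D3 replicate 1 (0.154) or MMS D3 replicate 2 (0.0522), and its MMS D14 libraries were all far lower (log2 change -2.28 ± 0.27 (SE), limma adjusted p = 6.55e-07). Agpat2 was at 187, 199.6 and 218 FPKM in R1 and 165, 166 and 156 in R2, between the MMS D7 and the Control libraries with no overlap. Mgll, the monoacylglycerol lipase, was at 296, 259 and 234 FPKM in the Control libraries, 163, 211 and 224 in those of MMS D3, 128, 129.9 and 139.7 in those of MMS D7, and 59.7, 68.1 and 90.6 in those of MMS D14. Each of its MMS libraries was below Control. Mgll was at 129.6, 132 and 139 FPKM in R1 and 124, 143 and 116 in R2, also below Control, and overlapped MMS D7. Lpin1, the phosphatidate phosphatase, fell in MMS D14 (log2 change -1.94 ± 0.20 (SE), limma adjusted p = 1.77e-07), and so did Gpam, the first acyltransferase of the pathway (log2 change -1.21 ± 0.23 (SE), limma adjusted p = 9.69e-05). Gpam was called in neither R1 nor R2 against MMS D14 (log2 changes 0.46 and 0.35, adjusted p = 0.0705 and 0.159).

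Agpat4, a lysophosphatidate acyltransferase that acts on phospholipid precursors and is best known from brain and muscle, was the 1 member that rose. It was singled out after its values were seen. It measured 22.3, 23.6 and 19.7 FPKM in the Control libraries, 21.1, 14.5 and 10.8 in those of MMS D3, 32.03, 28.8 and 33.3 in those of MMS D7, and 54.1, 47.5 and 36.4 in those of MMS D14. All MMS D7 and MMS D14 libraries were above Control, while MMS D3 overlapped it and lay lower on average. The MMS D14 value (log2 change 1.02 ± 0.21 (SE), limma adjusted p = 0.000174) was called, and this call held with each library left out. Centring on the sample median moves every MMS D14 change up by 0.52, and centring on the fat cell markers moves this one to 3.34. A rise is thus not put to the test by either centring. Agpat4 was at 32.3, 30.1 and 32.5 FPKM in R1 and 40.3, 38.01 and 27.2 in R2, above every Control library. The MMS D7 call (adjusted p = 0.0334) ended without Control replicate 1 (0.0576), Control replicate 3 (0.102), MMS D7 replicate 1 (0.0730) or MMS D7 replicate 3 (0.0856). The call of a fall in MMS D3 (log2 change -0.52, adjusted p = 0.0432) was lost in 5 of the 6 fits without 1 library (adjusted p up to 0.208 without MMS D3 replicate 3) and was 0.0601 without the 5 libraries. The R1 call (adjusted p = 0.0415) was lost without any one of the 6 libraries (0.0538 to 0.120), and the R2 call (adjusted p = 0.0143) without Control replicate 3 (0.0523), R2 replicate 1 (0.0685) or R2 replicate 2 (0.0533).

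Successive MMS groups were compared directly, a step added after the values were seen. From MMS D3 to MMS D7, 13 members were called lower in MMS D7 and 1 higher, beside 18.3% and 12.1% of all genes. Acsl1 (log2 change -0.91), Gpd1 (-0.87), Dgat1 (-0.71) and Acsm3 (-1.02) were among those lower, and Agpat4 was the one higher (1.02). In the 7 synthesis genes 1 was called, with a median change of -0.02, and Acss2 was at 0.67 and not called (adjusted p = 0.11). This count depends on single libraries: it was 25 without MMS D3 replicate 1, 7 without MMS D3 replicate 2, 5 without MMS D3 replicate 3, 6 without MMS D7 replicate 3 and 4 without the 5 libraries. From MMS D7 to MMS D14, 30 members were called lower in MMS D14 and 1 higher, beside 43.4% and 12.6% of all genes. Of these 31 calls 17 held whichever library was left out, and the count was 17 without MMS D14 replicate 1 and 20 without MMS D7 replicate 2. Insig1 (log2 change -0.08) and Elovl6 (-0.22) were not called between them.

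**Figure D3:**
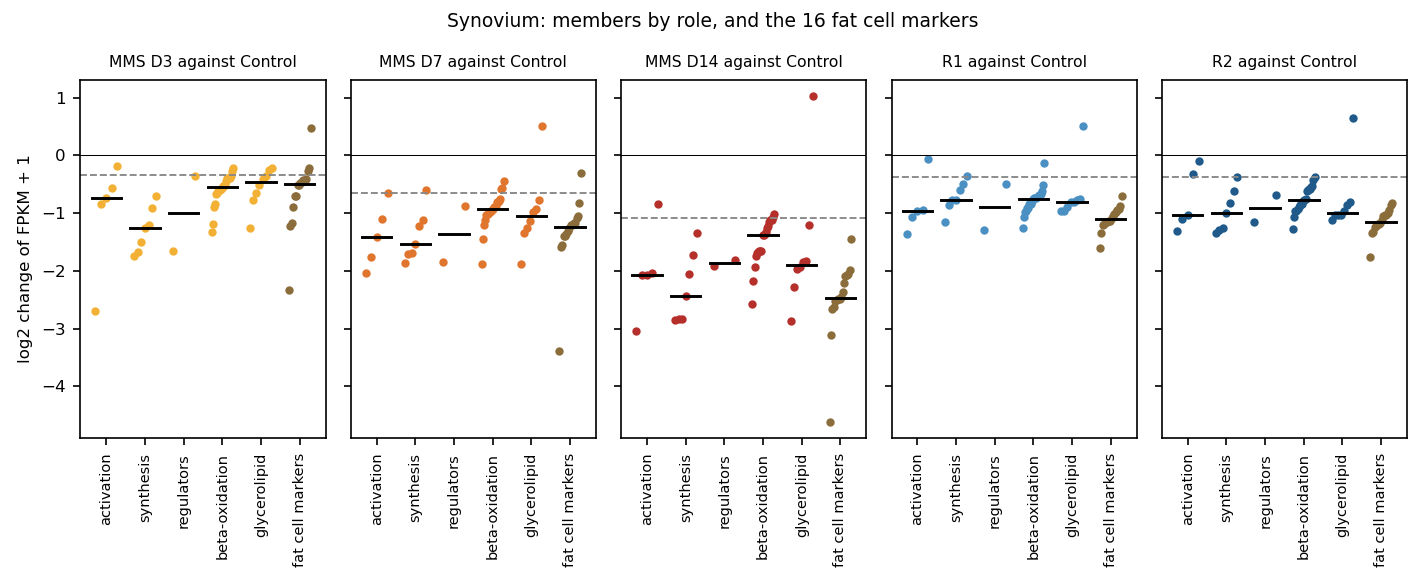
Log2 change of FPKM + 1 against Control for each synovium member, by role, and for the 16 fat cell markers, in 5 panels, 1 for each MMS group and for R1 and R2. Points are genes, black bars are medians and the dashed line is the median over all 1178 genes. In MMS D3 the synthesis genes have the lowest median of the named groups with more than 2 genes (-1.26), and in MMS D14 the fat cell markers do (-2.47).

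Values relative to the fat cell markers were computed after the data were seen, with each sample centred on the median log2 value of the 16 markers. In MMS D3, 12 members were then called lower than Control and 0 higher, beside 12% of all genes called lower. They were Acss2 (log2 change -2.36), Me1 (-1.41), Fasn (-1.33), Insig1 (-1.32), Elovl6 (-1.16), Echdc1 (-0.995), Pcx (-0.92), Dgat2 (-0.92), Acaca (-0.87), Echdc3 (-0.85), Hadhb (-0.56) and Eci1 (-0.51), and 5 of the 7 synthesis genes were among them. In MMS D7, 8 were lower and 3 higher, beside 3.99% and 41.5% of all genes. In MMS D14, 3 were lower, Acss2 (-0.73), Dgat2 (-0.55) and Pcx (-0.52), and 24 were higher, beside 2.89% and 84% of all genes. Of the 20 oxidation genes, 17 (85%) were among the 24, a share near the 84% of all genes. In R1 0 members were lower and 4 higher (54.4% of all genes), and in R2 0 were lower and 9 higher (57.8%). Relative to the markers, calls between these groups lay mostly in the other direction from those on the deposited values. R1 had 19 members lower than MMS D14 and 3 higher, beside 65.2% and 2.55% of all genes, and R2 had 16 lower and 2 higher, beside 57% and 2.63%. MMS D7 had 0 lower than MMS D3 and 11 higher (44.1% of all genes), and MMS D14 had 0 lower than MMS D7 and 27 higher (79.8%). Such values are ratios within a library and do not show that the markers or the members kept their level per cell.

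Other genes of the same pathways were counted in the same comparisons with Control. Of all genes, 39.6% were called lower at MMS D3, 61.6% at MMS D7 and 69.3% at MMS D14. In R1 it was 45.2% and in R2 45.1%. Of 28 genes that supply carbon and NADPH, 14 were listed, and 9 were called lower at MMS D3, 14 at MMS D7, 14 at MMS D14, 10 at R1 and 13 at R2, with 0 called higher. Thrsp, a lipogenic protein of this list, had log2 changes of -1.68 in MMS D3 and -3.11 in MMS D14. Of 36 oxidation partners and peroxisomal genes, 20 were listed, and 16, 19, 19, 19 and 19 were called lower in the same order of groups, with 1 called higher in MMS D14. Cat, the peroxisomal catalase, had a log2 change of -2.07 in MMS D14. Of 31 genes for fatty acid uptake and lipid droplets, 19 were listed, 7 of them fat cell markers as well, and 9, 17, 19, 17 and 16 were called lower, again in that order. The 47.4% called in MMS D3 lay near the share of all genes. Of 23 genes of cholesterol synthesis and uptake, which share SREBP control with Insig1, 0 were in either table.

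Cartilage listed 9 members: Scd1, Me1 and Pcx of synthesis, Echdc2 of the oxidation families, and Dgat1, Dgat2, Mogat2, Gpd1 and Gpam of glycerolipid assembly. With 2 libraries a group, many calls ended when 1 library was left out, and those libraries are named with each gene. In MMS D3, 1 of 9 was called lower (11% of all genes), and in MMS D7, 1 (15.6%). In MMS D14, 4 were called lower and 1 higher, beside 28% and 25.5% of all genes, and in MMS D28, 4 lower and 3 higher, beside 54.6% and 42.7%. R1 also had 4 lower and 3 higher, beside 33.3% and 36% of all genes. In R2, 0 were called, with 1 at an unadjusted p under 0.05, beside 0.747% of all genes called in either direction. The count in MMS D7 was 2 without Control replicate 1 and 0 without Control replicate 2 or either MMS D7 library. For MMS D14 the count was 1 if Control replicate 1 was omitted, 3 if MMS D14 replicate 1 was and 2 if MMS D14 replicate 2 was, in R1 it was 3 without Control replicate 2 or R1 replicate 1, and in R2 it was 1 without Control replicate 1.

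**Figure D4:**
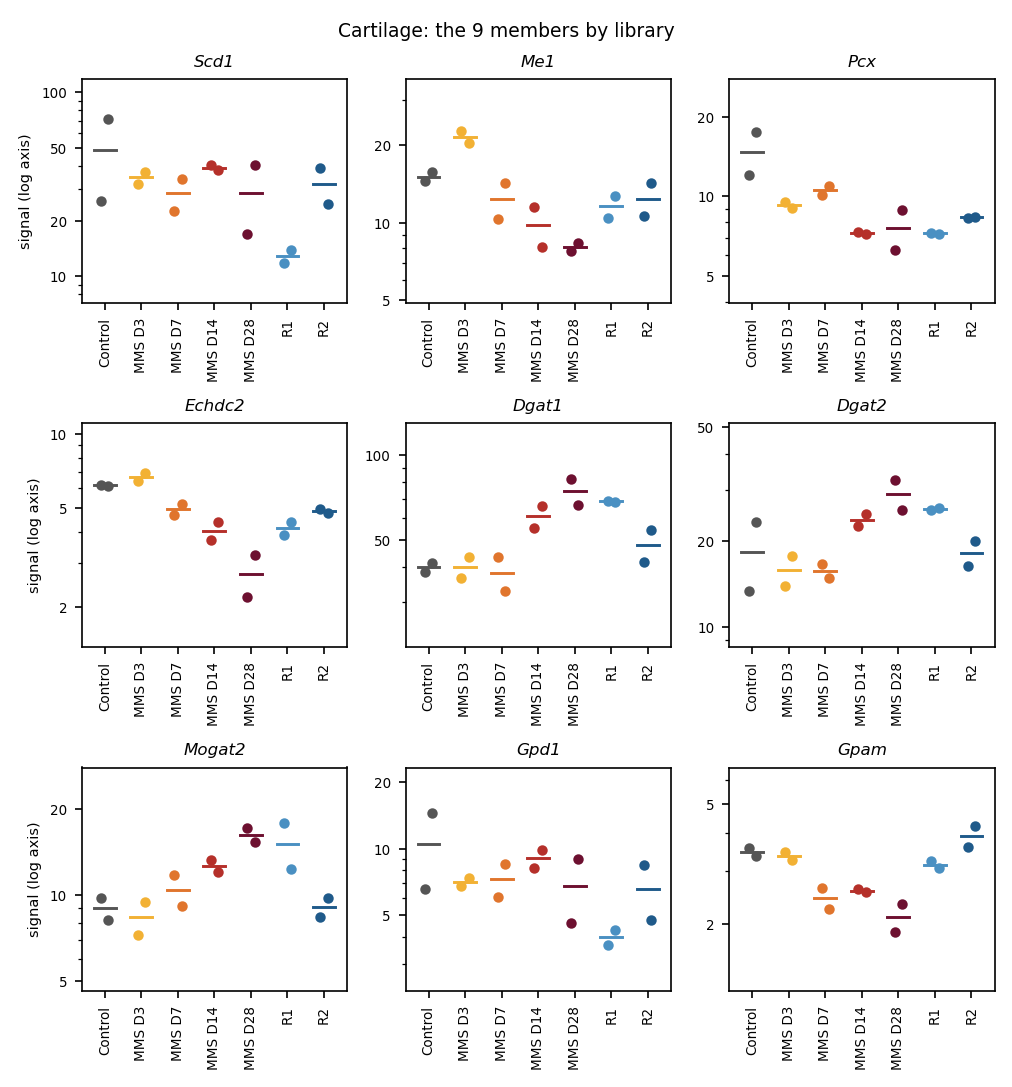
Cartilage signal (unit not stated) on a log axis in each library for the 9 members, by group, with points for libraries and bars for group means. Dgat1, Dgat2 and Mogat2 are highest in MMS D28 and R1, Echdc2 and Gpam are lowest in MMS D28, and Control replicate 2 is the highest library for Scd1 and Gpd1.

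Dgat1 and Dgat2, the acyltransferases that end triglyceride synthesis, were called higher in cartilage in MMS D28 and R1. Of all genes, 42.7% and 36% were called higher there. Dgat1 had a signal of 38.5 and 41.4 in the Control libraries, 36.8 and 43.4 in those of MMS D3, 43.6 and 32.8 in those of MMS D7, 55.2 and 66.01 in those of MMS D14, and 82.5 and 66.4 in those of MMS D28. It was 68.7 and 68.3 in R1 and 41.9 and 54.2 in R2. Every MMS D14, MMS D28, R1 and R2 library was above both Control libraries, and MMS D3 and MMS D7 overlapped them. Dgat1 rose in MMS D28 (log2 change 0.87 ± 0.18 (SE), limma adjusted p = 0.00111) and in R1 (log2 change 0.76 ± 0.18 (SE), limma adjusted p = 0.00567), and both calls held with each library left out. It was also called in MMS D14 (log2 change 0.58 ± 0.18 (SE), limma adjusted p = 0.0176), a call lost without Control replicate 1 (0.0965) or MMS D14 replicate 2 (0.137). Dgat2 had a signal of 13.4 and 23.2 in the Control libraries, 13.9 and 17.7 in those of MMS D3, 16.6 and 14.8 in those of MMS D7, 22.5 and 24.8 in those of MMS D14, and 32.7 and 25.7 in those of MMS D28. It was 25.7 and 26.01 in R1 and 16.3 and 19.9 in R2. MMS D28 and R1 were above both Control libraries, of which the second was high, and the calls (log2 change 0.68 ± 0.22 (SE), limma adjusted p = 0.0102 in MMS D28 and log2 change 0.52 ± 0.22 (SE), limma adjusted p = 0.0491 in R1) were lost without Control replicate 1 (0.169 and 0.538), MMS D28 replicate 1 (0.0818), R1 replicate 1 (0.126) or R1 replicate 2 (0.138).

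Mogat2, which makes diacylglycerol from monoacylglycerol and is best known from intestine, had a signal of 9.82 and 8.19 in the Control libraries, 7.27 and 9.51 in those of MMS D3, 11.8 and 9.18 in those of MMS D7, 13.3 and 12.1 in those of MMS D14, and 17.2 and 15.3 in those of MMS D28. It was 17.9 and 12.4 in R1 and 8.40 and 9.78 in R2. MMS D14, MMS D28 and R1 were above both Control libraries, with log2 change 0.79 ± 0.19 (SE), limma adjusted p = 0.00229 in MMS D28, a call that held with each library left out, and log2 change 0.67 ± 0.19 (SE), limma adjusted p = 0.0108 in R1, lost without Control replicate 2 (0.0668) or R1 replicate 1 (0.109). Dgat2 and Mogat2 are neighbours on chromosome 7, at chr7:99153658-99182719, minus strand and chr7:99219084-99238619, minus strand (GRCm38, GENCODE vM21), 36364 bases apart with 0 annotated genes between them. Gpd1 and Gpam, from the start of the pathway, were not called higher in MMS D28 or R1. Gpd1 had 6.58 and 14.5 in the Control libraries, 6.81 and 7.37 in those of MMS D3, 6.03 and 8.56 in those of MMS D7, 8.22 and 9.91 in those of MMS D14, and 4.62 and 9.03 in those of MMS D28. It was 3.67 and 4.29 in R1 and 8.43 and 4.77 in R2. Control replicate 2 was the highest library, and R1 alone was below both Control libraries. Its R1 call (log2 change -1.13 ± 0.34 (SE), limma adjusted p = 0.014) was lost without Control replicate 2 (0.133) or R1 replicate 1 (0.0680). Gpam had 3.56 and 3.35 in the Control libraries, 3.46 and 3.25 in those of MMS D3, 2.64 and 2.24 in those of MMS D7, 2.61 and 2.55 in those of MMS D14, and 1.89 and 2.33 in those of MMS D28. It was 3.24 and 3.06 in R1 and 3.61 and 4.21 in R2, below both Control libraries in R1 and above both in R2. The fall in MMS D28 held with each library left out (log2 change -0.52 ± 0.12 (SE), limma adjusted p = 0.00174), while those in MMS D7 and MMS D14 (adjusted p = 0.0415 and 0.0421) were each lost without any one of their 4 libraries (0.0520 to 0.207 and 0.0940 to 0.177).

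Among the synthesis genes, Pcx had a signal of 12 and 17.5 in the Control libraries, 9.49 and 9.04 in those of MMS D3, 10.1 and 10.9 in those of MMS D7, 7.32 and 7.21 in those of MMS D14, and 6.28 and 8.89 in those of MMS D28. It was 7.29 and 7.24 in R1 and 8.32 and 8.34 in R2. No library of any other group reached the Control range, and the falls in MMS D14 (log2 change -0.91 ± 0.18 (SE), limma adjusted p = 0.00139), MMS D28 (log2 change -0.87 ± 0.18 (SE), limma adjusted p = 0.000957) and R1 (log2 change -0.91 ± 0.18 (SE), limma adjusted p = 0.00285) held with each library left out. The MMS D3 call (log2 change -0.59, adjusted p = 0.029) was lost without Control replicate 2 (0.270), MMS D3 replicate 1 (0.0949) or MMS D3 replicate 2 (0.148). Me1 had 14.5 and 15.7 in the Control libraries, 22.7 and 20.4 in those of MMS D3, 10.4 and 14.3 in those of MMS D7, 11.5 and 8.06 in those of MMS D14, and 7.75 and 8.37 in those of MMS D28. Its signal was 10.4 and 12.7 in R1 and 10.6 and 14.2 in R2. The gene was above both Control libraries in MMS D3 (log2 change 0.49, adjusted p = 0.0915, not called) and below them from MMS D7 on, with log2 change -0.83 ± 0.20 (SE), limma adjusted p = 0.00211 in MMS D28. The MMS D14 call for Me1 (adjusted p = 0.0235) was lost without Control replicate 1 (0.0659), Control replicate 2 (0.104) or MMS D14 replicate 2 (0.224). Scd1 ranged widely, with 25.8 and 71.6 in the Control libraries, 31.9 and 37.05 in those of MMS D3, 22.8 and 33.7 in those of MMS D7, 40.3 and 37.6 in those of MMS D14, and 16.9 and 40.1 in those of MMS D28. It was 11.8 and 13.8 in R1 and 38.7 and 24.8 in R2. R1 was below every other cartilage library, and its call (log2 change -1.68 ± 0.43 (SE), limma adjusted p = 0.00732) was lost without Control replicate 2 (0.0631).

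Echdc2, an enoyl-CoA hydratase-like protein of mitochondria, had a signal of 6.20 and 6.16 in the Control libraries, 6.42 and 6.91 in those of MMS D3, 4.71 and 5.18 in those of MMS D7, 3.70 and 4.41 in those of MMS D14, and 2.19 and 3.22 in those of MMS D28. It was 3.9 and 4.41 in R1 and 4.98 and 4.79 in R2. Both MMS D3 libraries were above Control, all libraries from MMS D7 on were below it, and MMS D28 was the lowest, with log2 change -0.97 ± 0.14 (SE), limma adjusted p = 0.000213, a call that held with each library left out. The calls in MMS D14 (adjusted p = 0.0116) and R1 (0.014) were lost without Control replicate 1 (0.0596 and 0.0643), MMS D14 replicate 1 (0.0800), Control replicate 2 for R1 (0.0509) or R1 replicate 1 (0.0875).

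Other pairs of cartilage groups were compared in 4 cases, R1 and R2 against MMS D14, MMS D28 against MMS D14 and R2 against R1. Each of the 6 member calls there was lost without at least 1 library. R1 against MMS D14 had Scd1 lower (log2 change -1.54, beside 9.78% of all genes), lost without any one of the 4 libraries (adjusted p 0.0851 to 0.138). R2 against MMS D14 had Gpam higher (0.45, beside 19.8%), lost without MMS D14 replicate 2 (0.0669) or R2 replicate 2 (0.0920). In comparisons added after the values were seen, MMS D28 against MMS D14 had Echdc2 lower (-0.46, beside 16.1%), lost without either MMS D14 library (0.142 and 0.160) or MMS D28 replicate 1 (0.353). R2 against R1 had Scd1 higher (1.22) and Dgat1 (-0.52) and Mogat2 (-0.66) lower, beside 13.2% higher and 22.4% lower. Of these, Scd1 and Dgat1 were lost without R1 replicate 1, R1 replicate 2 or R2 replicate 1 (0.118 to 0.303), and Mogat2 without R1 replicate 1 (0.184) or R2 replicate 1 (0.151).

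Markers of other cells moved with the cartilage groups. The 10 neutrophil markers summed to 32023 to 32431 in Control, 27999 to 31265 in MMS D3, 24259 to 32109.5 in MMS D7, 38644 to 47956 in MMS D14, 50544 to 66240.3 in MMS D28, 57832 to 59805 in R1 and 32962 to 41584 in R2. All 10 were called higher in MMS D28 and in R1, beside 42.7% and 36% of all genes. These were the groups in which Dgat1, Dgat2 and Mogat2 were highest. The 11 chondrocyte markers summed to 9641 to 12883 in Control, 14099.5 to 14768 in MMS D3, 7574 to 11015 in MMS D7, 3442 to 3708 in MMS D14, 3803 to 5489 in MMS D28, 7289.85 to 7678 in R1 and 8352 to 9267 in R2. Of these, 7 of 11 were called lower in MMS D14, 11 of 11 in MMS D28 and 2 of 11 in R1. All genes had 28%, 54.6% and 33.3% called lower, in the same order. The 8 of 10 bone cell markers listed summed to 5579 to 5833 in Control, 2283 to 2848 in MMS D3, 3609 to 3787 in MMS D7, 3997 to 4667 in MMS D14, 2020.0 to 3372 in MMS D28, 2933 to 4589 in R1 and 5595 to 8452 in R2. Of these, 8 of 8 were called lower in MMS D28 and 6 of 8 in R1, beside 54.6% and 33.3% of all genes. The 3 of 7 lining fibroblast markers listed, led by Prg4, summed to 2943 to 4279 in Control, 6190 to 6953 in MMS D3, 2405 to 3237 in MMS D7, 1144 to 2069 in MMS D14, 1762 to 2210.3 in MMS D28, 2222 to 3429 in R1 and 1983 to 3123 in R2. In MMS D14, 1 of the 3 was called higher and 1 lower, beside 25.5% and 28% of all genes. MMS D28 also had 1 higher and 1 lower, beside 42.7% and 54.6%. The sum thus does not stand for lining cells as a set. The 7 B cell markers summed to 124 to 213 in MMS D28, 300.4 to 334 in R1 and 629.6 to 675 in Control. Of 16 fat cell markers 2 were listed, Cfd and Car3, and together they had 206.6 and 563 in Control, the second in the library in which Scd1 and Gpd1 were also highest. Their sum was 70.8 to 86.4 in MMS D3, 121 to 136 in MMS D7 and 206 to 219 in MMS D14. It was 76.5 to 200.2 in MMS D28, 60.4 to 64.3 in R1 and 128 to 243 in R2. Both were called lower in MMS D3, MMS D28 and R1, beside 11%, 54.6% and 33.3% of all genes. In MMS D7 1 was called lower, and in MMS D14 and R2 0 were. The 4 muscle markers listed summed to 39.5 and 189 in Control and to 15.6 to 49.7 elsewhere. The part of these cells in the member changes was not tested. Of the 28 genes that supply carbon and NADPH 9 were listed in cartilage, and 6 were called higher and 3 lower in MMS D28, as in R1. Of the 31 uptake and lipid droplet genes 4 were listed, 3 called higher and 1 lower in MMS D28, and of the 36 oxidation partners 1 was listed. Among all genes, 42.7% were called higher and 54.6% lower in MMS D28, and 36% and 33.3% in R1.

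The 8 genes listed in both tissues can be set side by side, although the tables were normalised separately and the difference between tissues was not tested. In MMS D14 Dgat1 was at -1.84 ± 0.17 in synovium and 0.58 ± 0.18 in cartilage (log2 change ± SE), and Dgat2 at -2.86 ± 0.21 and 0.40 ± 0.22. Pcx fell in both tissues, at -2.84 in synovium and -0.91 in cartilage, as did Me1 (-2.44 and -0.60) and Echdc2 (-1.12 and -0.51). Scd1 and Gpd1 were called lower in synovium in MMS D14 and were within the Control range in cartilage.

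**Figure D5:**
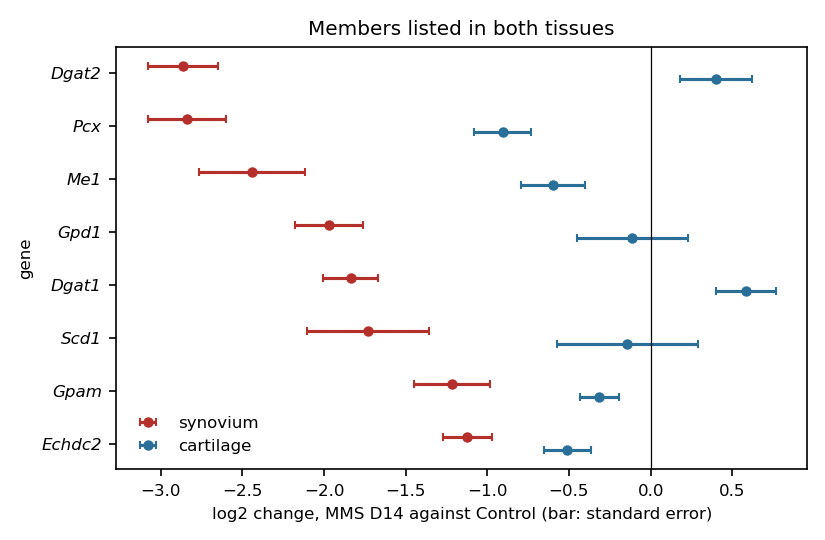
Log2 change (points) and standard error (bars) of MMS D14 against Control for the 8 members listed in both tissues, synovium in red and cartilage in blue. All 8 lie left of 0 in synovium, and Dgat1 and Dgat2 lie right of 0 in cartilage.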

How the data were processed

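RNA sequencing was deposited as 2 tables of selected genes. For synovium the authors deposited FPKM, and for cartilage the authors deposited a normalised signal of unstated unit. HISAT2 and the mouse build mm10 are named in the submitters' processing notes, without versions. The counting tool, use of strand, gene selection and read depth are not given in the sources used here. Libraries were checked for identical values, and none were repeats.

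Each table was fitted on its own with limma 3.58.1 (R 4.3.3, mean-variance trend) on log2(value + 1), all groups together, with Benjamini and Hochberg adjustment across the whole table and a threshold of 0.05. A minimum of 1 in at least 3 synovium or 2 cartilage samples removed 0 genes. The pseudocount of 1 understates the change of low genes. Tables and figures used Python 3.11.15, pandas 2.3.3, numpy 2.4.6 and matplotlib 3.10.9. On simulated data for MMS D14 against Control, with 200 genes changed by 1 on the log2 scale, 84% were recovered among 1178 synovium genes and 93.5% among 1606 cartilage genes.

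1 member is counted but not reported by name here. Members and lists were chosen with earlier results of these data known. Values in every sample are given for up to 4 members per role group and tissue with the highest mean, and Agpat4 in synovium and Gpam, the ninth cartilage member, were added after their values were seen. Alternatives were another pseudocount, no filter, no trend, centring on the sample median, only the groups compared, a replicate block, a fold minimum and each library left out. Omission of, or a term for, the 5 libraries that stand apart, centring on fat cell markers and comparisons between successive groups were chosen after seeing the data. Promoter and gene positions are from RefSeq on GRCm38.p6 and GENCODE vM21.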

Additional observations from a re-analysis of the deposited data

Results flagged for a closer look

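In 7 of 40 comparisons with Control (8 genes in 5 groups) a gene listed in both tissues moved in opposite directions without overlap: every library of the group lay below every Control library in synovium and above every Control library in cartilage. In synovium the group lay wholly below Control in 36 of the 40, and in cartilage wholly above it in 7 and wholly below it in 18, with 2 libraries a group there. The same counts were not made over all listed genes, so they do not show that such cases are particular to the members. The tables were normalised separately and the difference between tissues was not tested. Values are log2 changes against Control. Dgat1, a triglyceride-forming acyltransferase, was at -1.84 in synovium and 0.58 in cartilage in MMS D14, at -0.90 and 0.76 in R1, and at -1.03 and 0.25 in R2. Dgat2, the other such enzyme, was at -0.97 in synovium and 0.52 in cartilage in R1. Me1, cytosolic malic enzyme, was at -1.74 in synovium and 0.49 in cartilage in MMS D3. Echdc2, of the enoyl-CoA hydratase family, was at -0.38 in synovium and 0.094 in cartilage in MMS D3. Gpam, the first acyltransferase of glycerolipid synthesis, was at -0.86 in synovium and 0.14 in cartilage in R2. The cartilage values of Dgat1 in R2, Me1 and Echdc2 in MMS D3 and Gpam in R2 were not called by limma.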

How the results depend on the processing

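Counts of members called, both directions together, lay within 1.5 times of those reported except as follows. With an absolute log2 change of at least 1 as well, synovium had 10 in MMS D3, 21 in MMS D7, 6 in R1 and 12 in R2 against Control, 16 and 15 in R1 and R2 against MMS D14, 2 in MMS D7 against MMS D3 and 4 in MMS D14 against MMS D7. In cartilage that rule left 0 in MMS D3, MMS D7, MMS D14 and MMS D28 and 2 in R1 against Control, 0 in R2 against MMS D14, 0 in MMS D28 against MMS D14 and 1 in R2 against R1. Centred on the fat cell markers, synovium had 12 at MMS D3, 11 at MMS D7, 27 at MMS D14, 4 at R1 and 9 at R2 against Control, and 22 (19 lower and 3 higher) and 18 (16 lower and 2 higher) in R1 and R2 against MMS D14. The counts of MMS D7 against MMS D3 (11) and MMS D14 against MMS D7 (27) stayed within 1.5 times under that centring, but all of them were higher, where 13 of 14 and 30 of 31 were lower as deposited. With only the 2 groups compared there were 18 in synovium MMS D3 and 2 in MMS D7 against MMS D3, and in cartilage 2 in MMS D3, 0 in MMS D7, 2 in R1 against MMS D14 and 0 in MMS D28 against MMS D14. Centring on the sample median gave 8 in MMS D7 against MMS D3 and 17 in MMS D14 against MMS D7 in synovium, and 0 in cartilage MMS D7 and in MMS D28 against MMS D14. Without a variance trend cartilage MMS D7 had 0, and without the 5 libraries MMS D7 against MMS D3 had 4. The cause was not tested.

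With 1 library left out, synovium counts ran from 17 to 34 in MMS D3, 38 to 41 in MMS D7, 42 to 42 in MMS D14, 32 to 34 in R1, 32 to 35 in R2, 36 to 42 in R1 and 36 to 41 in R2 against MMS D14, 5 to 25 in MMS D7 against MMS D3, 17 to 33 in MMS D14 against MMS D7 and 0 to 0 in R2 against R1. Cartilage counts ran from 0 to 1 in MMS D3, 0 to 2 in MMS D7, 1 to 4 in MMS D14, 6 to 9 in MMS D28, 3 to 6 in R1, 0 to 1 in R2, 0 to 0 in R1 and 0 to 1 in R2 against MMS D14, 0 to 1 in MMS D28 against MMS D14 and 0 to 3 in R2 against R1. There a group left with 1 library is assumed to vary like the others.

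The labels do not say that replicate numbers pair samples, and same-numbered samples had deviations correlated from -0.165 to 0.661 in synovium and -0.508 to 0.422 in cartilage. With a replicate block, 34 synovium members were called at MMS D3, 41 at MMS D7, 42 at MMS D14, 35 at R1 and 37 at R2 against Control, and cartilage had 0 in MMS D7 and 2 in R1 against MMS D14. No called member change reversed under the other alternatives run, apart from centring on the fat cell markers. Members called in 1 direction as deposited and in the other after that centring numbered 0 in MMS D3, 2 in MMS D7 and 23 in MMS D14 against Control. R1 had 1 and R2 had 5. Against MMS D14 the numbers were 17 for R1 and 14 for R2, MMS D14 against MMS D7 had 16, and MMS D7 against MMS D3 had 0. Depth is unknown, so low members such as Acaa1b and Gpam carry no counting interval.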
